A study of Mus musculus with 25 samples.

Results

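Cytochrome P450 genes of families 1 to 3 were followed in mouse liver. A gene was a member when its symbol began with Cyp1, Cyp2 or Cyp3 followed by a subfamily letter and a number, and Cyp2b genes and pseudogenes were not taken. Of 41388 gene identifiers in the count tables, 55 met this rule, and 43 of those exceeded 1 CPM (a read count scaled to library size) in at least 2 libraries and were among the 14065 genes tested. The 43 came from 12 subfamilies: 13 Cyp2c, 8 Cyp2d, 7 Cyp3a, 4 Cyp2a, 3 Cyp2j and 2 Cyp1a genes, with 1 gene each in Cyp1b, Cyp2e, Cyp2f, Cyp2g, Cyp2r and Cyp2u. The 12 that stayed below the limit were Cyp2c65, Cyp2c66, Cyp2j7, Cyp2j8, Cyp2j11, Cyp2j12, Cyp2j13, Cyp2s1, Cyp2t4, Cyp2w1, Cyp3a41b and Cyp3a57, each with at most 28 reads in any library.

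Libraries were made from the livers of 25 male mice on a C57B/6J background. All mice received an AAV8 virus in which the hepatocyte-directed thyroxine-binding globulin promoter drove either NAMPT, which makes the NAD precursor nicotinamide mononucleotide, or nothing (empty vector, EV). Wild-type (WT) mice carried LoxP-flanked Sirt1 alleles without Cre, and mice labelled LKO carried the same alleles with Cre under the albumin promoter, which is active in hepatocytes. The groups were chow WT EV (n = 3), Western diet (WD) WT EV (n = 6), WD WT NAMPT (n = 6), WD LKO EV (n = 5) and WD LKO NAMPT (n = 5). The mice were labelled as 20 weeks old, after up to 12 weeks of study. Total counts ran from 20166175 to 32937326 per library. Sirt1 was examined first, and in the libraries labelled LKO it ran from 7.16 to 11.1 CPM, against 7.62 to 9.53 CPM in the 12 WD WT libraries, so the whole-gene count did not separate the genotypes, and a deletion of some exons may not show in it. Nampt reached 59.5 ± 10.6 CPM (SD, n = 6) in WD WT NAMPT against 47.4 ± 6.46 CPM with the empty vector (SD, n = 6), and in the LKO mice it ran from 53.9 to 127 CPM with NAMPT against 46.0 to 75.6 CPM with the empty vector, so the groups overlapped in both genotypes and Nampt was called in neither. LKO is therefore used as the label of these libraries. The tissue label was checked with 6 hepatocyte markers, which together gave 44736 to 71463 CPM in every library. In whole liver, fewer cells of a type and less RNA per cell cannot be told apart.

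P450 enzymes are heme proteins of the endoplasmic reticulum that insert 1 atom of oxygen into a substrate, with electrons passed on by P450 reductase and cytochrome b5. Those of families 1 to 3 oxidize drugs, carcinogens, steroids and fatty acids, and many are made mainly by hepatocytes around the central vein. Their genes are switched by receptors that sense foreign compounds, among them AHR (aryl hydrocarbon receptor) for the Cyp1 genes, CAR for Cyp2b and Cyp2c genes and PXR for Cyp3a genes. Several mouse genes of the Cyp2a, Cyp2c, Cyp2d and Cyp3a subfamilies differ in level between the sexes.

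Most members sit in clusters of near copies. In GRCm38, 8 of the 9 Cyp3a genes lie on chromosome 5 between 145345279 and 146113285, 14 of the 15 Cyp2c genes span 39007019 to 40187333 on chromosome 19, and the 8 Cyp2d genes span 82370528 to 82794245 on chromosome 15. The cysteine that holds the heme iron lies in a signature of 10 residues, and the 30 coding bases of it are shown for the genes on which the results turn, with the cysteine codon in capitals. The letters were read from GENCODE M21 transcripts (GRCm38), on the coding strand.
Cyp3a11: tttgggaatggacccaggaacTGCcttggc
Cyp3a16: tttgggaatggacccaggaacTGCattggc
Cyp3a41a: tttggaattggacccaggaacTGCattggc
Cyp3a44: tttggaattggacccaggaacTGCattggc
Cyp2c29: ttttcaacaggaaaacggattTGTgctgga
Cyp2c37: ttctcaacagggaaacggataTGTgcagga
Cyp2c50: ttctcaacaggaaaacggataTGTgcagga
Cyp2c54: ttctcaacagggaaacggataTGTgcagga
Cyp2e1: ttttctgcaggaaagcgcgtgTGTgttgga
The signature was found in the longest reading frame of 42 of the 43 members, and was not found in that of Cyp3a59. Cyp2c37 and Cyp2c54 had the same 30 bases, as did Cyp3a41a and Cyp3a44. Over the whole coding sequence the 4 Cyp3a genes were 92.4% to 95.8% identical in pairs, and Cyp2c37, Cyp2c50 and Cyp2c54 were 95.1% to 96.1% identical, whereas Cyp2c29 was 83.2% to 83.5% identical to these 3.

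Near copies bear on the counts, since the reads had 50 bases and the study counted uniquely aligned reads. Of the 50-base windows in Cyp3a41a transcripts, 98.6% also occur in another gene, mostly Cyp3a41b. The share was 26.5% in Cyp3a44, 14.8% in Cyp3a11, 10.7% in Cyp3a16, 30.1% in Cyp2c37, 29.8% in Cyp2c50, 25.7% in Cyp2c54, 6.69% in Cyp2c29 and 4.57% in Cyp2e1. Levels of the genes with a high share, and their division among the copies, are therefore uncertain. Cyp2c40 (70.2%), Cyp2c69 (54.8%), Cyp2c67 (52.8%) and Cyp2c68 (43.3%) also shared large parts.

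Levels between genes are compared per length, as RPKM (reads per kilobase of exon, scaled to library size), computed from the normalized CPM and the exon length in the tables. On chow the Cyp3a subfamily held the most, with a summed 4304 ± 280.0 RPKM (SD, n = 3), which was 38.5% of the RPKM of all 43 members. On Western diet Cyp2e1, which oxidizes ethanol and acetaminophen, took that place in each of the 4 groups, with 2822 ± 679 RPKM in WD WT EV (SD, n = 6), 1659 ± 1012 in WD WT NAMPT (SD, n = 6), 2545 ± 636 in WD LKO EV (SD, n = 5) and 2742 ± 1074 in WD LKO NAMPT (SD, n = 5). The summed Cyp2c level was 2002 ± 503 RPKM on chow and 1352 ± 431 in WD WT EV, and the summed Cyp2d level was 1317 ± 334 and 1656 ± 319 RPKM. The 43 members together gave 11343 ± 1408 RPKM in chow WT EV, 8265 ± 1645 in WD WT EV, 5898 ± 2547 in WD WT NAMPT, 6986 ± 1260 in WD LKO EV and 7677 ± 1988 in WD LKO NAMPT. The Cyp3a sums were 1080 ± 291 RPKM in WD WT EV, 959 ± 245 in WD WT NAMPT, 683 ± 92.4 in WD LKO EV and 1102 ± 387 in WD LKO NAMPT, so all Western diet groups were far below chow. In the sum over all members the SDs of groups next to each other in level overlapped, except those of chow and WD WT EV.

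**Figure D1:**
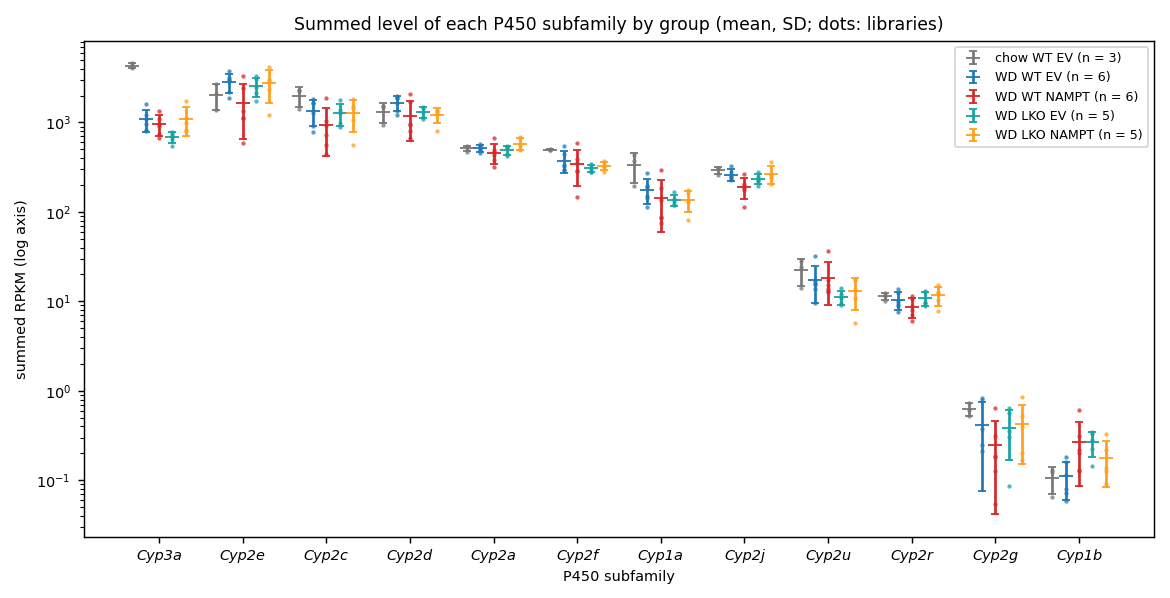
Summed RPKM (log axis) of the kept genes of each P450 subfamily in the 5 groups; the short bar is the mean, the whiskers are the SD and the dots are libraries (a Cyp2g library at 0 is not drawn). The chow Cyp3a libraries, from 4031 to 4591 RPKM, sit above all Western diet libraries, the highest of which reached 1753 RPKM.

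The leading gene of each subfamily by mean RPKM over all 25 libraries was Cyp2e1 (2379 RPKM), Cyp3a11 (1143), Cyp2d9 (470.0), Cyp2f2 (358), Cyp2c29 (321), Cyp2a12 (281), Cyp2j5 (222), Cyp1a2 (171), Cyp2u1 (16), Cyp2r1 (10.4), Cyp2g1 (0.397) and Cyp1b1 (0.192). The leader was not the same in every group: Cyp2d26 was above Cyp2d9 in WD LKO EV (478 against 397 RPKM) and WD LKO NAMPT (462 against 365), Cyp2c70 was the highest Cyp2c gene in WD WT NAMPT at 212 RPKM, and Cyp2a5 and Cyp2a12 were level on chow (249 and 247 RPKM). Cyp2e1 is described above, and Cyp3a11 and Cyp2c29 with the comparisons.

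Levels of the other leading genes are given as mean RPKM ± SD in the order chow WT EV (n = 3), WD WT EV (n = 6), WD WT NAMPT (n = 6), WD LKO EV (n = 5) and WD LKO NAMPT (n = 5). Cyp2f2, which acts on naphthalene and is known as a periportal P450, had 497 ± 7.85, 374 ± 102, 341 ± 147, 307 ± 28.9 and 327 ± 31.5. The SDs of chow and WD WT EV did not overlap although single libraries did, and the 4 Western diet groups overlapped. Cyp2d9, a testosterone 16-alpha hydroxylase that is higher in males, had 543 ± 260.0, 633 ± 230.0, 420.0 ± 316, 397 ± 81.5 and 365 ± 137, with overlap between all neighbours in that order of level. Cyp2a12, a bile acid hydroxylase, kept a narrow range, with 247 ± 18.2, 302 ± 41.1, 278 ± 68.7, 259 ± 5.35 and 301 ± 19.6. Cyp2j5, an arachidonic acid epoxygenase, had 272 ± 24.6, 237 ± 34.8, 171 ± 44.9, 215 ± 29.0 and 242 ± 53.6, and Cyp1a2, which metabolizes caffeine, had 332 ± 122, 177 ± 55.8, 144 ± 84.2, 135 ± 20.2 and 136 ± 36.5. In Cyp1a2 the SDs of the 4 Western diet groups overlapped.

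The leaders of the small subfamilies were far lower. Cyp2u1, a long-chain fatty acid hydroxylase, had 22.2 ± 7.24, 17.3 ± 7.69, 18.2 ± 9.08, 11.2 ± 2.0 and 13.1 ± 5.0 RPKM in the same order of groups. Cyp2r1, the vitamin D 25-hydroxylase, had 11.4 ± 1.16, 10.4 ± 2.31, 8.69 ± 2.1, 10.8 ± 1.93 and 11.7 ± 2.75 RPKM. The olfactory P450 Cyp2g1 had a mean of 0.25 to 0.627 RPKM and Cyp1b1, an AHR target found mostly outside hepatocytes, a mean of 0.106 to 0.266 RPKM. Neighbouring groups overlapped within their SDs in Cyp2u1 and Cyp2r1.

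The first comparison asked what Western diet did in WT EV mice. Cyp3a11, the most abundant Cyp3a gene, fell 4.62-fold, and each of the 7 Cyp3a genes fell, although the calls of Cyp3a13 and Cyp3a25 were lost in several other fits. In all, 13 of the 43 members fell and 4 rose (limma, adjusted p of 0.05 or less, which is what "called" means throughout). Over all 14065 genes, 12.0% fell and 10.1% rose. The median fold change of the members was -0.35 on the log2 scale, against 0.00 over all genes, and 14 members showed no overlap between chow and Western diet libraries, 11 lower and 3 higher, against 16.1% of all genes.

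Cyp3a11, the main drug-oxidizing Cyp3a enzyme of mouse liver and a PXR target, stood at 8672, 9149 and 9774 CPM in the 3 chow libraries. In WD WT EV its lowest, median and highest values were 1434, 1941 and 3053 CPM. The groups lay far apart, and the change was -2.21 ± 0.21 on the log2 scale (SE, limma adjusted p = 1.14e-07). Cyp3a16, known as female-predominant, had 10.4, 12.4 and 12.5 CPM on chow and 1.9, 2.66 and 3.31 CPM as its lowest, median and highest values on Western diet. It changed by -2.13 ± 0.21 (SE, limma adjusted p = 1.15e-07). Cyp3a44, also female-predominant, had 16.7, 20.0 and 18.1 CPM on chow against a lowest, median and highest value of 2.82, 3.88 and 5.5 CPM, a change of -2.17 ± 0.23 (SE, limma adjusted p = 3.84e-07). Cyp3a41a, the copy that shares nearly all its windows with Cyp3a41b, had 2.69, 3.34 and 3.39 CPM on chow and 0.548, 0.623 and 0.83 CPM as its lowest, median and highest values, a change of -2.24 ± 0.24 (SE, limma adjusted p = 5.63e-07). The 3 low genes followed Cyp3a11 at a small share of its CPM in every library. Over the 25 libraries that share ran from 0.0996% to 0.181% for Cyp3a16, from 0.115% to 0.28% for Cyp3a44 and from 0.021% to 0.0803% for Cyp3a41a. All 3 share 50-base windows with Cyp3a11 or its copies, and whether reads of Cyp3a11 entered their counts was not tested, so their fall is not separate evidence beside that of Cyp3a11.

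The other 3 Cyp3a genes changed less. Cyp3a59 had 32.0, 57.0 and 59.4 CPM on chow and 14.4, 19.3 and 26.3 CPM as its lowest, median and highest values in WD WT EV, with no overlap and a change of -1.23 ± 0.24 (SE, limma adjusted p = 0.000749). Cyp3a25 fell by 0.82 and Cyp3a13 by 0.53 on the log2 scale, and neither overlapped between the groups. Cyp3a13 was called in 6 of 12 alternative fits, and not by edgeR or DESeq2, and in 5 of 9 fits without 1 library. Cyp3a25 was called in 9 of the 12 and 7 of the 9, and not by the edgeR quasi-likelihood test, without quality weights, with 2 surrogate variables or without chow replicate 1 or 2.

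**Figure D2:**
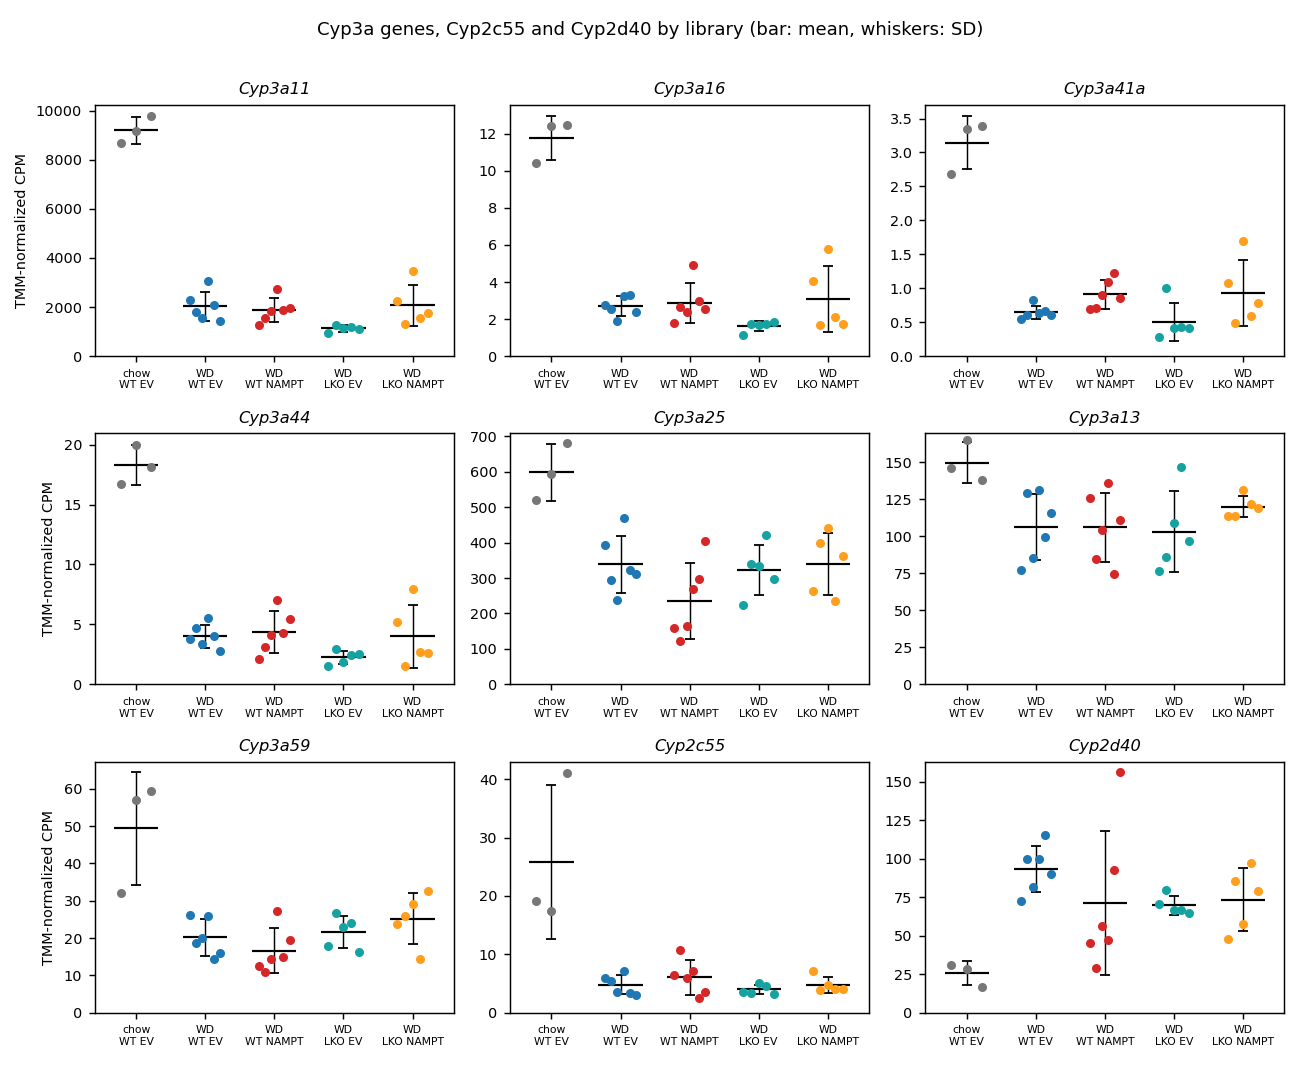
TMM-normalized CPM of the 7 Cyp3a genes, Cyp2c55 and Cyp2d40 in each library (dots) of the 5 groups, with mean (bar) and SD (whiskers) on linear axes that start at 0. In Cyp3a11 the chow libraries sit at 8672 to 9774 CPM and WD WT EV at 1434 to 3053 CPM, while Cyp2d40 shows the opposite order.

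The sequence before the start sites of the 4 Cyp3a genes with the steepest fall is shown because their counts moved together. The promoter stretches are from RefSeq (GRCm38.p6, minus strand, 5′ to 3′) and end before the first transcript start that RefSeq or GENCODE annotates, which left 140 of the 250 upstream bases for Cyp3a11. Capitals mark AGTTCA in either orientation, the half-site of the PXR and CAR type of receptor.
Cyp3a11: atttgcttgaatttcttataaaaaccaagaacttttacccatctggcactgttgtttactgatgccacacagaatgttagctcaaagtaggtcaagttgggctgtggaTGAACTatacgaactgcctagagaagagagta
Cyp3a16: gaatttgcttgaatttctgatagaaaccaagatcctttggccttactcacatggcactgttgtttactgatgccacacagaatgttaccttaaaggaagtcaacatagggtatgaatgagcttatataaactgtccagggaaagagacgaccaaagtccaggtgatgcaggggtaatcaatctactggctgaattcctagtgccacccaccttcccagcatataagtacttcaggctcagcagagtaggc
Cyp3a41a: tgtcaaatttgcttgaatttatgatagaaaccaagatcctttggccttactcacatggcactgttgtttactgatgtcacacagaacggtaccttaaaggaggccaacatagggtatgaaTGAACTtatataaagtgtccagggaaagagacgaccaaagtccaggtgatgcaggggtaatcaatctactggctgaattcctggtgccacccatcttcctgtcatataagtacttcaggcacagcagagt
Cyp3a44: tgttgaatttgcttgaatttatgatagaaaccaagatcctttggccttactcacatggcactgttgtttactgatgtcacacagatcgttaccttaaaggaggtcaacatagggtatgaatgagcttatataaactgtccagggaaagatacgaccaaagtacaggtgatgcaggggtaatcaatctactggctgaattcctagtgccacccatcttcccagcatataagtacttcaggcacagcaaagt
They lie at chr5:145879965-145880104, chr5:145469724-145469973, chr5:145720137-145720386 and chr5:145805875-145806124. Cyp3a16, Cyp3a41a and Cyp3a44 were 93.9% to 95.9% identical here, and Cyp3a11 was 79.3% to 82.1% identical to them over the part shown. AGTTCA stood in Cyp3a11 and Cyp3a41a and, with Cyp2c40, Cyp2c50 and Cyp2c69, in 5 of the 36 members with a RefSeq promoter (13.9%), against 11.9% of 27025 promoters with 250 upstream bases. GCGTG, the core of the AHR response element, was in 4 of 36 member promoters (11.1%), those of Cyp1a1, Cyp1b1, Cyp2c68 and Cyp2j9, against 28.2% of all. The D-box TTATGTAA, searched because clock genes differed as described in the next paragraphs, was in 0 of 36 and in 0.862% of all. Both strands were searched, and no motif contains another.

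Outside Cyp3a, the steepest fall was that of Cyp2c55, a P450 that makes 19-hydroxyeicosatetraenoic acid, which is better known from colon. It had 19.1, 17.4 and 41.1 CPM on chow, and its lowest, median and highest values in WD WT EV were 3.05, 4.52 and 7.06 CPM. It changed by -2.08 ± 0.26 (SE, limma adjusted p = 4.76e-06), and the groups did not overlap. The remaining members that fell were Cyp1a2 (-1.17 on the log2 scale) and Cyp2j9, Cyp2c29, Cyp2c68 and Cyp2c67 (from -1.04 to -0.75). Cyp1a2 had 709, 808 and 368 CPM on chow and 215, 319 and 517 CPM as its lowest, median and highest values in WD WT EV, so that the third chow library lay within the Western diet range.

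Of the members that rose, Cyp2d40 moved most. It had 31.2, 28.5 and 16.7 CPM on chow against a lowest, median and highest value of 72.6, 95.0 and 115 CPM in WD WT EV, a change of 1.75 ± 0.22 on the log2 scale (SE, limma adjusted p = 4.71e-06). Cyp2a22 had 5.75, 6.23 and 3.75 CPM on chow and 8.88, 12.6 and 27 CPM as its lowest, median and highest values, a change of 1.2 ± 0.34 (SE, limma adjusted p = 0.0131). Cyp2c38 rose by 1.11 and Cyp2d26, an abundant Cyp2d gene, by 0.58 on the log2 scale. The libraries overlapped for Cyp2c38 and did not for the other 3.

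Other genes of the P450 system were read from fixed lists. Of 23 regulators tested, 4 rose (Dbp, Tef, Ppara and Nr0b2) and 3 fell, among them Stat5b and Arnt. Dbp, a clock-driven transcription factor, rose by 4.04 on the log2 scale, from 0.62, 1.25 and 5.13 CPM on chow to a range of 8.79 to 51.3 CPM, and its partner Tef rose by 1.27 and the fatty acid receptor Ppara by 1.04 on the log2 scale. PXR itself (Nr1i2) had 49.4 ± 11 CPM on chow (SD, n = 3) against 48.7 ± 12.8 CPM on Western diet (SD, n = 6) and was not called. Of 12 genes of heme synthesis and breakdown, 1 rose, Alas1, the first enzyme of heme synthesis, by 1.4 ± 0.33 (SE, limma adjusted p = 0.00413). Of 5 electron donors, Cyb5r3 rose by 0.40. The hour of tissue collection is not given in the labels, and the part of the Dbp and Tef difference in the P450 result was not tested. Of the markers of other cells, Nkg7, Cd68, Col3a1 and Lrat rose and Kdr fell, and of the hepatocyte markers Fgb fell. The summed 6 macrophage markers ran from 215 to 261 CPM on chow and from 229 to 325 CPM in WD WT EV, and the summed 6 hepatocyte markers from 58738 to 71463 and from 48497 to 65677 CPM. Their part was not tested.

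With the edgeR quasi-likelihood test 11 members were called, 8 lower and 3 higher, all of them among the 17. That was 25.6% of the members against 9.4% of all genes. Without chow replicate 1 or chow replicate 2 the count was 9 (20.9%, against 6.77% and 5.99% of all genes). Without chow replicate 3, which stood apart from the others in Cyp1a2 and Cyp2c54, it was 17 (39.5%, against 21.8% of all genes). The 4 steep Cyp3a genes, Cyp3a59, Cyp2c55, Cyp2j9, Cyp2d40 and Cyp2d26 were called in each of 12 alternatives and 9 fits without 1 library. Cyp2a22 and Cyp2c68 were not called without chow replicate 1 or 2. Beside Cyp3a13 and Cyp3a25, calls were lost in Cyp1a2 and Cyp2c67 (kept in 8 of the 12 alternatives and 7 of the 9 fits each), Cyp2c29 (6 and 5) and Cyp2c38 (7 and 2).

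The second comparison asked what the NAMPT vector did in WT mice on Western diet. Cyp2c54, Cyp2c37, Cyp2c50, Cyp2c29 and Cyp2e1, known as pericentral genes, fell by 0.98 to 1.97 on the log2 scale. In 4 of these 5 the same 4 of 6 NAMPT livers lay below all livers with the empty vector. The same 4 livers did so in Cyp2d9, Cyp2d10 and Cyp2d40, which are not on the pericentral list. Of the 6 NAMPT livers, 5 lay below the EV range in Cyp2d26 and Cyp2j5. In all, 13 of 43 members fell and 1 rose, while 5.77% of all genes fell and 7.67% rose. The median over the members was -0.42 on the log2 scale, against 0.00 over all genes. The libraries of both groups overlapped in each of the 43 members, as against 0.96% of all genes in which they did not.

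Cyp2c54 changed most. Its lowest, median and highest values were 45.6, 191 and 249 CPM in WD WT EV and 9.55, 44.4 and 248 CPM in WD WT NAMPT, a change of -1.97 ± 0.58 (SE, limma adjusted p = 0.027). Cyp2c37, which makes 12-hydroxyeicosatetraenoic acid, had 185, 359 and 492 CPM in WD WT EV and 35.2, 101 and 369 CPM in WD WT NAMPT as its lowest, median and highest values, a change of -1.74 ± 0.42 (SE, limma adjusted p = 0.0137). In WD WT NAMPT replicates 1, 2, 3 and 4 it stood at 117, 35.2, 66.7 and 85.2 CPM, all below the EV range, while replicates 5 and 6 stood at 241 and 369 CPM, within it. Cyp2c50 showed the same division, with 337, 94.5, 192 and 264 CPM in those 4 and 658 and 1016 CPM in the other two, against 423 to 1031 CPM with the empty vector. It changed by -1.36 ± 0.37 (SE, limma adjusted p = 0.0198).

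Cyp2c29, an arachidonic acid epoxygenase and the leading Cyp2c gene, had 638, 962 and 1683 CPM as its lowest, median and highest values in WD WT EV and 167, 440.0 and 1334 CPM in WD WT NAMPT. It changed by -1.17 ± 0.30 (SE, limma adjusted p = 0.0155). Cyp2e1 had 3455, 5412 and 6897 CPM in WD WT EV and 1078, 2277 and 6068 CPM in WD WT NAMPT, a change of -0.98 ± 0.26 (SE, limma adjusted p = 0.0173). In both genes the same 4 livers lay below the EV range and the other two within it. Cyp2c39, a retinoic acid hydroxylase of low level, had 2.17, 4.9 and 9.76 CPM in WD WT EV and 0.778, 2.73 and 3.43 CPM in WD WT NAMPT as its lowest, median and highest values, and changed by -1.04 ± 0.31 (SE, limma adjusted p = 0.0276). Here replicates 1 and 2 lay below the EV range and the rest within it.

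The low-level Cyp2d34 went from a lowest, median and highest value of 0.844, 1.24 and 1.7 CPM to 0.535, 0.728 and 1.4 CPM, a change of -0.80 ± 0.24 (SE, limma adjusted p = 0.0305). Cyp1b1 was the 1 member that rose, from 0.302, 0.5 and 0.928 CPM to 0.646, 1.07 and 3.11 CPM, by 1.32 ± 0.40 (SE, limma adjusted p = 0.0318). It had 8 to 22 reads in the WD WT EV libraries, and its highest value was 1 library with 132 reads. No chow or WD WT EV library reached 1 CPM, so Cyp1b1 passed the filter through the other groups. Its call was lost in 6 of 12 alternatives and in 6 of 12 fits without 1 library. The other members that fell were Cyp2d40, Cyp2j5, Cyp2d10, Cyp2d22, Cyp2d26 and Cyp2j6, from -0.70 to -0.40 on the log2 scale. The Cyp3a genes that had fallen steeply with diet gave no call, and Cyp3a11 had a lowest, median and highest value of 1280, 1856 and 2726 CPM in WD WT NAMPT.

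**Figure D3:**
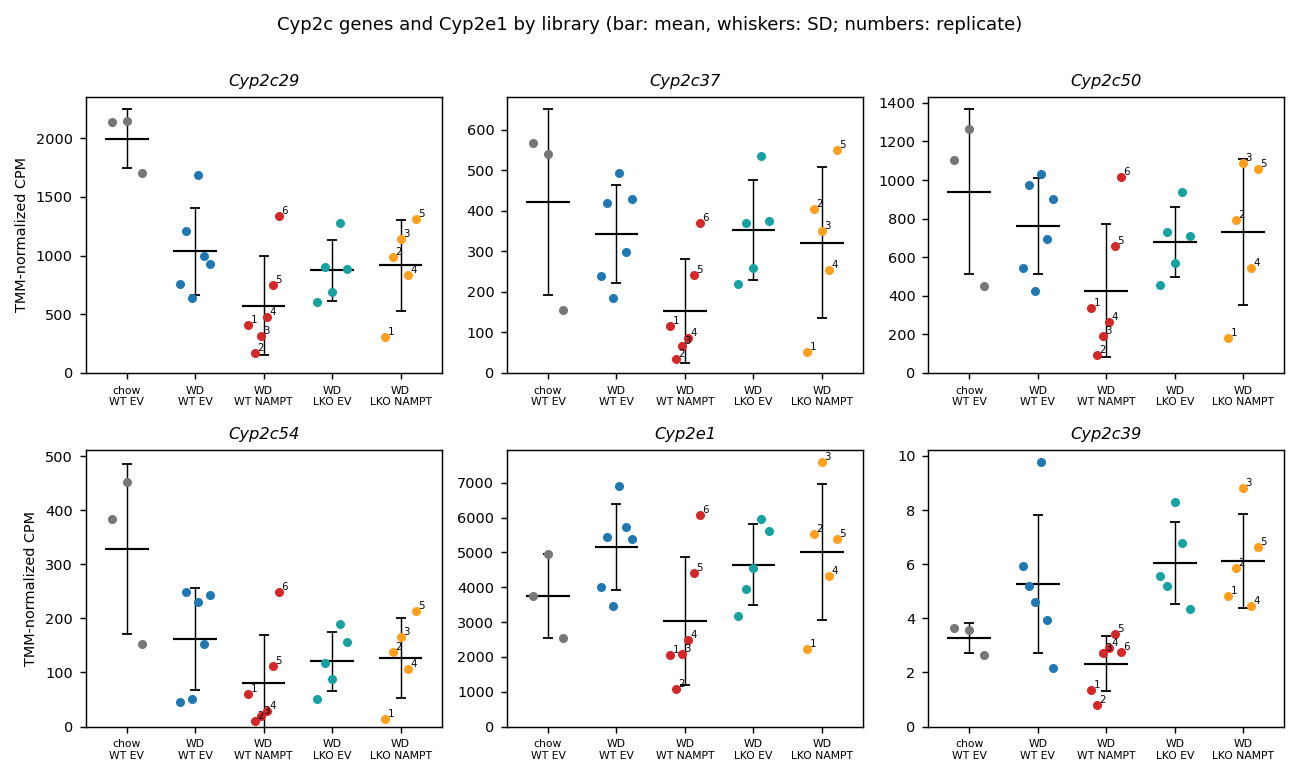
TMM-normalized CPM of 5 Cyp2c genes and Cyp2e1 in each library (dots, with the replicate number for both NAMPT groups), with mean (bar) and SD (whiskers, not drawn below 0) on linear axes. In Cyp2c37 the WD WT NAMPT replicates 1 to 4 sit at 35.2 to 117 CPM, below the WD WT EV minimum of 185 CPM, and replicate 1 of WD LKO NAMPT sits at 51.3 CPM.

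The upstream stretches of 3 of these genes are shown because Cyp2c37 and Cyp2c50 moved together and are near copies (RefSeq, GRCm38.p6, plus strand, 5′ to 3′, with AGTTCA in either orientation in capitals).
Cyp2c29: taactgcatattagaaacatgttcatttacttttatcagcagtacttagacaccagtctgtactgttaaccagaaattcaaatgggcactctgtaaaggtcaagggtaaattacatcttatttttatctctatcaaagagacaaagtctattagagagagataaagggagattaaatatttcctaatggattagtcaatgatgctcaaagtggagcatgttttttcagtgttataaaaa
Cyp2c37: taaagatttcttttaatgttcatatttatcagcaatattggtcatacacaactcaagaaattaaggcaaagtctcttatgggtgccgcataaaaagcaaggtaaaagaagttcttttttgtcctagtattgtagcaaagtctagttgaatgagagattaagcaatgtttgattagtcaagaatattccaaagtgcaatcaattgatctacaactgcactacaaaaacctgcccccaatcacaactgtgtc
Cyp2c50: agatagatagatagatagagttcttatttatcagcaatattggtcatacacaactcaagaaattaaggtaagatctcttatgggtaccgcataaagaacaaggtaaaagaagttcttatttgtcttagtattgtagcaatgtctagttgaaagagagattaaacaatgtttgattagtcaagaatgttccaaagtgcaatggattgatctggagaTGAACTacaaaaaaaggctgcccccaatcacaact
They lie at chr19:39286835-39287073, chr19:39992174-39992423 and chr19:40089429-40089678. The Cyp2c29 stretch precedes the RefSeq start, and GENCODE lists a transcript that begins farther upstream. Cyp2c37 and Cyp2c50 were 88.4% identical, and Cyp2c29 was 67.8% identical to the first and 69.8% to the second.

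Genes of other cell types moved with this comparison. Of 6 macrophage markers, 5 rose, with the scavenger receptor Marco at 2.79, Lyz2 at 1.14 and Cd68 at 1.0 on the log2 scale. Their summed level was 672, 594, 610.0, 436, 370.0 and 233 CPM in WD WT NAMPT replicates 1 to 6, against 229 to 325 CPM in WD WT EV. Of 4 neutrophil markers tested, S100a9 and Csf3r rose, and the sum of the list was 21.5, 26.1, 15.2, 17, 7.64 and 3.5 CPM in replicates 1 to 6, against 2.73 to 7.66 CPM, with Ly6g at 0 in all WD WT EV libraries. The 4 livers with the lowest Cyp2c37 and Cyp2e1 were thus the 4 with the highest sums of both lists. Of 5 stellate cell markers Col1a1, Col3a1 and Des rose, and their sum ran from 182 to 582 CPM against 171 to 349 CPM. Of 4 endothelial markers Pecam1 rose and Clec4g fell, and 0 of 4 lymphocyte and 0 of 4 cholangiocyte markers were called (limma, 1 and 0 at an unadjusted p under 0.05). The hepatocyte markers gave 0 calls of 6 with limma (1 at an unadjusted p under 0.05), with sums of 44736 to 62429 and 48497 to 65677 CPM. The part of these cells in the P450 result was not tested.

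Some partners of the P450 enzymes also changed, in a comparison in which 5.77% of all genes fell and 7.67% rose. Of 23 regulators 3 fell and 0 rose, so the number called was near the 13.4% of all genes called. CAR (Nr1i3) fell by 0.95 and Hlf by 0.48 on the log2 scale. Nr1i3 stood at 20.2, 10.5, 24.3, 26.2, 48.6 and 53.4 CPM in WD WT NAMPT replicates 1 to 6, against 39.6 to 65.7 CPM in WD WT EV, so the same 4 livers were below the EV range. Of 5 electron donors, 3 fell, namely Cyb5b (-0.49), Cyb5a (-0.48) and Pgrmc1 (-0.45), and P450 reductase (Por) was not called. Of 12 heme genes, 2 fell, among them Cpox (-0.54) of the synthesis pathway, and 1 rose, Hmox1, which breaks heme down, by 0.79. Of 9 members known as pericentral, 5 fell (Cyp2e1, Cyp2c29, Cyp2c37, Cyp2c50 and Cyp2c54), and the median of the 9 was -0.98 on the log2 scale. Cyp1a2, Cyp2a5, Cyp3a11 and Cyp3a25 of that list were not called.

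This result depended on the fit and on single libraries. The edgeR quasi-likelihood test called 1 member (Cyp2c39), and limma without sample quality weights called 0, with 15 members at an unadjusted p under 0.05. Cyp2c54, Cyp2c37, Cyp2c50, Cyp2c29 and Cyp2e1 were called by neither edgeR test nor by DESeq2. Over 12 alternatives Cyp2c37 lost its call in 7, and Cyp2c54, Cyp2c50, Cyp2c29 and Cyp2e1 lost theirs in 8 each. Over 12 fits without 1 library these genes lost it in 2 to 5. In the fit above 32.6% of the members were called against 13.4% of all genes. The quasi-likelihood test called 2.33% of the members against 3.04% of all genes, the edgeR exact test 6.98% against 6.11%, DESeq2 11.6% against 8.49%, limma on the 2 groups alone 4.65% against 4.64% and limma without quality weights 0 against 1.37%. In those 5 fits the share of members called was thus near or below that of all genes. It was above it with upper-quartile size factors (32.6% against 12.9%), library size alone (20.9% against 16.2%) and a mean CPM of at least 1 (31.7% against 14.7%). The same held without the 3 libraries of lowest quality weight (32.6% against 12.7%). No filter gave 3.64% against 1.8%, the replicate block 9.3% against 6.29%, and 2 surrogate variables 0 against 0.448%. The count was 0 without WD WT EV replicate 2 or WD WT NAMPT replicate 3, where 2.07% and 0.938% of all genes were called. It was 3 without WD WT EV replicate 6 (6.98%, against 4.44% of all genes). Without WD WT NAMPT replicate 2 it was 4 (9.3%, against 5.2% of all genes). The count rose to 17 or 19 without WD WT EV replicate 1 or 4 or WD WT NAMPT replicate 5 or 6. In those fits 15.5% to 20.2% of all genes were called. With 2 surrogate variables in the fit the log2 change shrank to -0.08 in Cyp2c54, -0.54 in Cyp2c37, -0.27 in Cyp2c50, -0.30 in Cyp2c29 and -0.22 in Cyp2e1 (limma adjusted p = 0.334 to 0.935).

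The third comparison asked what the vector did in the mice labelled LKO. No member was called with limma (2 of 43 at an unadjusted p under 0.05, against 9.63% of all genes), with DESeq2 or with the quasi-likelihood and exact tests of edgeR (5 each), and 0.00711% of all genes were. The median over the members was 0.08 on the log2 scale. The libraries did not overlap in 3 members, against 1.15% of all genes, and all 3 were higher with NAMPT. Cyp3a11 stood at 923, 1249, 1153, 1199 and 1105 CPM in WD LKO EV and at 2233, 1320, 3454, 1548 and 1772 CPM in WD LKO NAMPT, a difference of 0.57 ± 0.19 (SE, limma adjusted p = 0.323). Cyp2j6 differed by 0.32 (limma adjusted p = 0.389) and Cyp2a12 by 0.20 (limma adjusted p = 0.567). Of the Cyp2c genes, Cyp2c37 stood at 219, 369, 260.0, 536 and 376 CPM in WD LKO EV and at 51.3, 405, 349, 253 and 550 CPM in WD LKO NAMPT, where replicate 1 was the 1 low library. That library also had the highest macrophage marker sum of its group, 482 against 255 to 319 CPM, and the lowest Nr1i3, 34.3 against 45.1 to 61.8 CPM. Without it 0 members were called in this comparison (limma, 5 at an unadjusted p under 0.05). Of 4 cholangiocyte markers 3 had an unadjusted p under 0.05 and all 4 were negative, with a median of -1.25 on the log2 scale and 0 called, and their part was not tested.

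The fourth comparison set the genotypes side by side with the empty vector. No member was called with limma (12 of 43 at an unadjusted p under 0.05, against 6.33% of all genes), with edgeR (7 by its quasi-likelihood and 9 by its exact test) or with DESeq2 (10), and 0.00711% of all genes were. Of those 12 by limma, 9 were lower and 3 higher in LKO. Cyp1b1, of low level, was higher by 1.49 ± 0.39 (SE, limma adjusted p = 0.348). The median over the members was -0.19 on the log2 scale. Cyp3a11, Cyp3a16 and Cyp2j6 did not overlap between the groups, each lower in LKO, against 0.59% of all genes. The 5 Cyp3a11 values in WD LKO EV given above all lay below the WD WT EV minimum of 1434 CPM, a difference of -0.79 ± 0.18 (SE, limma adjusted p = 0.177). Cyp3a16 stood at 1.13, 1.75, 1.69, 1.74 and 1.83 CPM against a WD WT EV minimum of 1.9 CPM, a difference of -0.69 ± 0.27 (SE, limma adjusted p = 0.661). With 2 surrogate variables Cyp2j6 was called, at -0.36 on the log2 scale in the fit without them. Of 4 cholangiocyte markers 2 had an unadjusted p under 0.05, with a median of 0.60 and 0 called, and their part was not tested.

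The fifth comparison set LKO against WT under the NAMPT vector, and it shares the WD WT NAMPT libraries with the second. Among the members, 5 Cyp2c genes, Cyp2e1, Cyp2a5, Cyp2r1 and Cyp2j5 were higher in LKO. That made 9 of 43 members higher and 0 lower, against 4.18% and 3.78% of all genes, and the median over the members was 0.34 on the log2 scale. The libraries did not overlap in 2 members, against 1.39% of all genes. These were Cyp2c38 and Cyp2c39, a pair of female-predominant Cyp2c genes. Cyp2c38 had 12.7, 25.9 and 42.0 CPM as its lowest, median and highest values in WD WT NAMPT and 59.7, 85.6, 163, 72.3 and 94.2 CPM in WD LKO NAMPT, a difference of 1.44 ± 0.39 (SE, limma adjusted p = 0.0304). Cyp2c39 had 4.82, 5.85, 8.81, 4.44 and 6.65 CPM in WD LKO NAMPT, all above the WD WT NAMPT maximum of 3.43 CPM, a difference of 1.27 ± 0.30 (SE, limma adjusted p = 0.0225).

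The remaining called members overlapped between the groups. Cyp2c37, with the values given above, differed by 1.63 ± 0.45 (SE, limma adjusted p = 0.0329). Cyp2c29 had 302, 988, 1143, 832 and 1315 CPM in WD LKO NAMPT and differed by 1.01 ± 0.32 (SE, limma adjusted p = 0.0497). Cyp2e1 had 2216, 5520, 7606, 4332 and 5375 CPM and differed by 0.92 ± 0.27 (SE, limma adjusted p = 0.0415). In these 3 genes replicate 1 of WD LKO NAMPT lay among the low WD WT NAMPT libraries. Cyp2a5, a coumarin 7-hydroxylase, had a lowest, median and highest value of 229, 323 and 579 CPM in WD WT NAMPT and 337, 785, 647, 379 and 491 CPM in WD LKO NAMPT, a difference of 0.79 ± 0.22 (SE, limma adjusted p = 0.0304). Cyp2c68 had 46.1, 61.1 and 102 CPM against 74.1, 113, 112, 72.1 and 138 CPM, a difference of 0.68 ± 0.17 (SE, limma adjusted p = 0.0233). Cyp2r1 had 9.83, 13.8 and 18.9 CPM against 12.8, 20.7, 24.8, 16.8 and 20.3 CPM, a difference of 0.55 ± 0.16 (SE, limma adjusted p = 0.0364). Cyp2j5 differed by 0.49 on the log2 scale.

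Of the partners, 3 of 23 regulators were higher in LKO and 0 lower, among them Nr1i3 (0.85) and Hlf (0.60). Of 5 electron donors 4 were higher (Cyb5a, Cyb5b, Cyb5r3 and Pgrmc1), as were 2 of 12 heme genes, among them Cpox. Over all genes 4.18% were higher and 3.78% lower in this comparison. Of 6 macrophage markers Marco, Lyz2 and Csf1r were lower, with a summed level of 255 to 482 CPM in WD LKO NAMPT against 233 to 672 CPM, and of 4 neutrophil markers Csf3r was lower. Of 5 stellate cell markers 3 and of 4 cholangiocyte markers 1 had an unadjusted p under 0.05, with medians of -0.46 and -0.42 and 0 called. The part of these cells was not tested. The 9 pericentral members gave 4 higher and 0 lower, with a median of 0.92 on the log2 scale. The edgeR quasi-likelihood test called 1 member, Cyp2c38, and the edgeR exact test and DESeq2 called Cyp2c38 and Cyp2c39. The quasi-likelihood test thus called 2.33% of the members against 0.32% of all genes, the exact test 4.65% against 1.26% and DESeq2 4.65% against 2.09%, where limma had called 20.9% against 7.96%. With library size alone in place of TMM, 5 members were higher and Cyp3a44 was lower, while 5.97% of all genes were called. The count was 0 without WD WT NAMPT replicate 2 or 3, where 1.07% and 0.555% of all genes were called. It was also 0 without WD LKO NAMPT replicate 2, 3 or 5, where 0, 1.42% and 0.0142% of all genes were. Without WD WT NAMPT replicate 4 it was 3 (6.98%, against 4.64% of all genes). The count was 14 to 17 without WD WT NAMPT replicate 5 or 6 or WD LKO NAMPT replicate 1 or 4. In those fits 12.9% to 16.3% of all genes were called. With 2 surrogate variables the difference shrank to 0.47 in Cyp2c37, 0.22 in Cyp2c29 and 0.29 in Cyp2e1 (limma adjusted p = 0.281 to 0.515).

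Whether the vector's effect itself differed between genotypes was tested as an interaction, the log2 change with NAMPT in LKO minus that in WT. No member was called with limma (17 of 43 at an unadjusted p under 0.05, 16 of them positive, against 21.2% of all genes) or with the edgeR quasi-likelihood test (6), DESeq2 called Cyp3a11 (7 at an unadjusted p under 0.05), and 0.00711% of all genes were called with limma. The member nearest the threshold was Cyp2j6 at 0.71 ± 0.17 (SE, limma adjusted p = 0.0681), followed by Cyp1b1 at -2.01 ± 0.53 (SE, limma adjusted p = 0.0745) and Cyp2j5 at 0.64 ± 0.17 (SE, limma adjusted p = 0.0772). For Cyp2c54 the interaction was 2.04 ± 0.83 (SE, limma adjusted p = 0.166) and for Cyp2e1 1.10 ± 0.38 (SE, limma adjusted p = 0.114). Of the 9 pericentral members, 8 had an unadjusted p under 0.05 and none was called, with a median of 1.10 on the log2 scale. Of 6 macrophage markers 5 had an unadjusted p under 0.05 with a median of -0.80, of 5 stellate cell markers 4 with a median of -0.75, of 4 cholangiocyte markers 3 with a median of -1.08 and of 4 neutrophil markers 1 with a median of -1.13, and all the markers of these 4 lists were negative. The lymphocyte, endothelial and hepatocyte lists had 0 at an unadjusted p under 0.05 and medians of -0.16, 0.07 and 0.04. No marker was called, and the part of these cells was not tested. The count of called members rose to 6 without WD WT NAMPT replicate 6 or without WD LKO NAMPT replicate 1, and to 4 without WD WT NAMPT replicate 5. The calls over all genes rose with them, from 1 to 638, 676 and 366 of 14065 (4.54%, 4.81% and 2.6%), so the rise was not limited to the P450 genes.

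**Figure D4:**
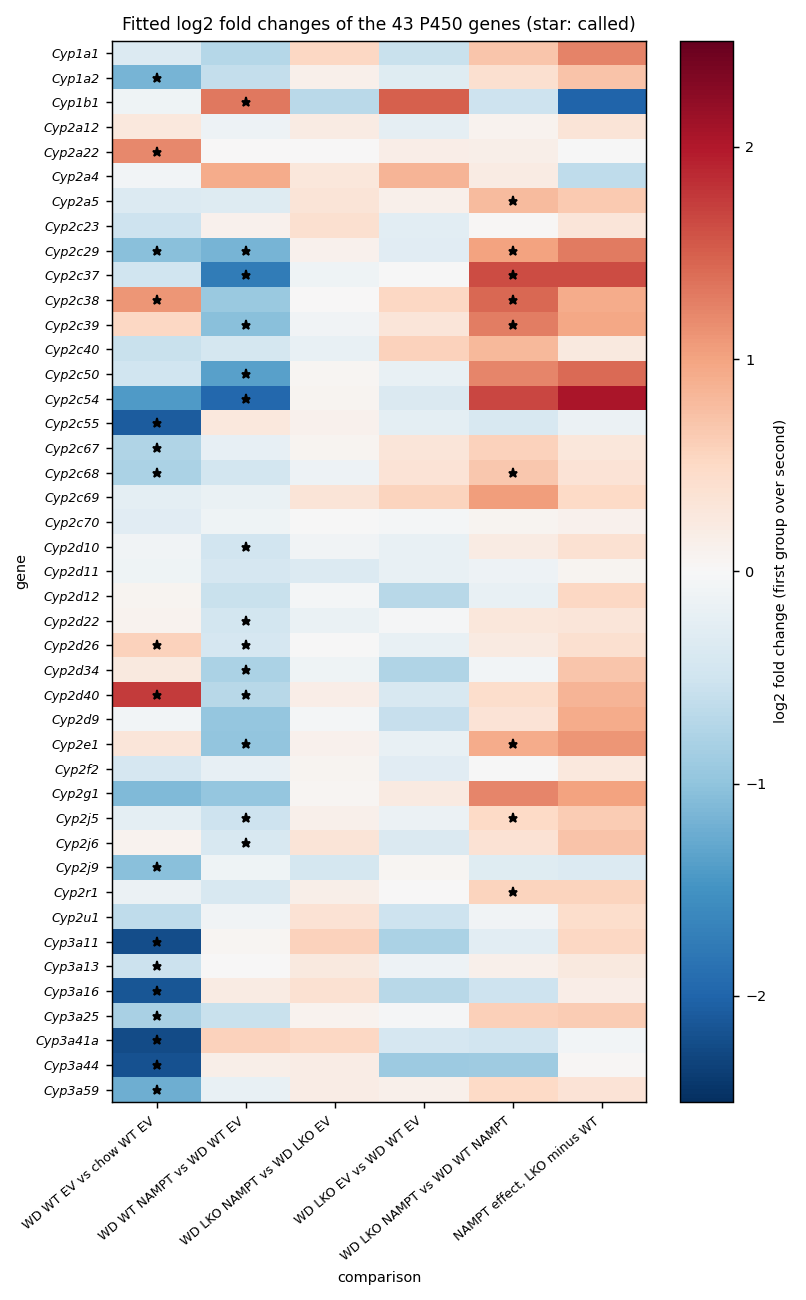
Fitted log2 fold changes (colour, first group over second) of the 43 P450 genes (rows) in the 6 comparisons (columns), with a star where the limma adjusted p was 0.05 or less. The Cyp3a rows at the bottom are called in the diet column, with Cyp3a41a at -2.24, 5 of the 13 Cyp2c rows are called in the WD WT NAMPT column, with Cyp2c54 at -1.97, and 9 rows are called for LKO against WT under NAMPT, while the columns for NAMPT within LKO, for LKO against WT with the empty vector and for the interaction hold no star.

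The 9 kept members known as female-predominant did not move as a block. With diet Cyp3a16, Cyp3a41a and Cyp3a44 fell and Cyp2c38 rose, with the NAMPT vector in WT 1 of the 9 fell (Cyp2c39), and between genotypes under NAMPT Cyp2c38 and Cyp2c39 were higher in LKO. The tenth gene of that list, Cyp3a41b, stayed below the limit, at 0 to 8 reads per library.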

How the data were processed

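RNA from 25 mouse livers was sequenced after poly-A selection as single reads of 50 bases, with no marking of strand described. Per the labels, reads were aligned to GRCm38 with STAR 2.5.1a and counted with Subread featureCounts 1.4.6-p5, and the study's methods name other versions of both tools. The authors deposited for each library a table of raw counts per gene with CPM (counts scaled to the library's counted reads) and RPKM (the same per kilobase of exon). The deposited CPM and RPKM columns were read to check the tables, and every value in the text was computed from the deposited counts. Total counts were 20166175 to 32937326 per library, and their number limits the precision of low genes. No 2 libraries of a group agreed within counting noise (chi-square per degree of freedom of at least 15.9).

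Groups follow the sample titles. The treatment label names a SIRT1 insert where the titles and the series name NAMPT, and the titles were followed. Identifiers were paired with symbols through the reference annotation (40340 of 41388 matched), 4 ribosomal RNA genes were left out, and genes over 1 CPM in at least 2 libraries were kept. TMM factors, voom with sample quality weights and limma 3.58.1 (R 4.3.3) were used on all 25 libraries with 1 mean per group, and p-values were adjusted by Benjamini-Hochberg over 14065 genes. The replicates are separate mice as the labels number them. The script was tested on simulated data. Alternatives were the edgeR 4.0.16 quasi-likelihood and exact tests, DESeq2 1.42.0, surrogate variables (sva 3.50.0), other size factors and filters, a replicate block and each library left out. CPM in the text were scaled with the TMM factors.

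Members and lists were chosen with earlier results of these data known. In each comparison the up to 8 called members with the largest absolute log2 fold change were named with values, in each subfamily the member with the highest mean RPKM, and of each list its counts with the called genes of largest change. Some called genes of the lists are counted but not reported here by name. The AGTTCA and D-box motifs and the fit without the 3 libraries of lowest quality weight were chosen after the data were seen. Shared windows were counted as 50-base stretches of a gene's transcripts found in another gene's transcripts. The labels name no batch, cage or collection hour, so none could be examined.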

Additional observations from a re-analysis of the deposited data

Results flagged for a closer look

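In 27 named genes and 108 groups of 4 to 10 libraries, 5 groups held 1 library far from the others by Dixon's test, and chance alone gives about 1 in 20. Cyp3a41a stood at 1.0 CPM in WD LKO EV replicate 2, against 0.282 to 0.425 CPM in the other 4 libraries. Cyp3a16 stood at 1.13 CPM in WD LKO EV replicate 1, against 1.69 to 1.83 CPM. WD LKO NAMPT replicate 1 was low in both Cyp2c54, at 14.4 CPM against 106 to 213 CPM, and Cyp2d9, at 215 CPM against 605 to 775 CPM. Cyp2u1 stood at 84.8 CPM in WD WT NAMPT replicate 6, against 29.9 to 40.8 CPM.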

How the results depend on the processing

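The number of called members depended on the fit and on single libraries, and the cause was not tested. For diet (17 called) the edgeR quasi-likelihood test and limma without quality weights gave 11 each, and leaving out 1 library gave 9 to 19. For NAMPT in WT (14 called, 13.4%) the quasi-likelihood test gave 1 (3.04%), the exact test 3 (6.11%), DESeq2 5 (8.49%) and no quality weights 0 (1.37%). Library size alone gave 9 (16.2%), the groups compared alone 2 (4.64%) and 2 surrogate variables 0 (0.448%). With no filter on low counts 2 of 55 members tested were called (1.8%). Leaving out 1 library gave 0 to 19 (0.938% to 20.2%). For LKO against WT under NAMPT (9 called, 7.96%) the quasi-likelihood test gave 1 (0.32%), the exact test 2 (1.26%), DESeq2 2 (2.09%) and no quality weights 1 (0.27%). The groups compared alone gave 0 (0.0853%), 2 surrogate variables 0 (0.171%) and the fit without the 3 libraries of lowest weight 1 (3.39%). With no filter on low counts 0 of 55 members tested were called (0.412%). Leaving out 1 library gave 0 to 17 (0 to 16.3%). For NAMPT in LKO and for LKO against WT with the empty vector (0 called) leaving out 1 library gave 0 to 0 (0 to 0.0355%). With 2 surrogate variables the second gave 1 (0.107%). The interaction (0 called) gave 1 with DESeq2 (0.135%) and 0 to 6 with 1 library left out (0.00711% to 4.81%). The exact test was not run for the interaction. Of the alternatives for named genes, 326 kept the direction and the call and 217 kept the direction and lost the call. The sizes were not stable in the NAMPT comparisons: over the alternatives that keep every library or drop the 3 of lowest weight, the log2 change of Cyp2c54 with NAMPT in WT ran from -2.01 to -0.08 and that of Cyp2e1 from -0.98 to -0.22, and the LKO against WT difference of Cyp2c37 under NAMPT from 0.47 to 1.63.

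Same-numbered libraries correlated from -0.324 to 0.367 in their deviations. Libraries of different number were not correlated for reference, so whether same-numbered mice shared a cage or batch was not tested. With the replicate block, diet gave 22 called members (51.2%, against 27.3% of all genes) and NAMPT in WT 4 (9.3%, against 6.29%). LKO against WT under NAMPT gave 2 (4.65%, against 2.93%). The other 3 comparisons gave 0, with at most 0.469% of all genes called.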
